A study of Rattus norvegicus with 4 samples.

Results

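The cyclin-dependent kinase inhibitors and the D cyclins were followed in cultured rat bone marrow cells as 10 genes, namely Cdkn1a, Cdkn1b, Cdkn1c, Cdkn2a, Cdkn2b, Cdkn2c, Cdkn2d, Ccnd1, Ccnd2 and Ccnd3. They were taken by symbol from the authors' table of 14390 named genes, where 13 probes stood for them. The cells came from the bone marrow of Wistar rats aged 6 weeks and were cultured for 15 days, at high density on 2 arrays or at regular density on 2 arrays, the latter being the control. RNA was labelled with Cy3 and read on Agilent one-colour arrays, in which brightness at a printed probe stands for the amount of a transcript. Strain, age, tissue and culture time were shared by all samples, and the labels name no genetic change and no drug. The design describes 2 independent experiments, and the sources used here give no cell numbers, media or pooling of animals.

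D cyclins bind the kinases Cdk4 and Cdk6, and the active complexes phosphorylate the retinoblastoma protein, which releases E2F factors and opens S phase. The INK4 inhibitors p16 (Cdkn2a), p15 (Cdkn2b), p18 (Cdkn2c) and p19 (Cdkn2d) occupy Cdk4 and Cdk6 themselves. The CIP and KIP inhibitors p21 (Cdkn1a), p27 (Cdkn1b) and p57 (Cdkn1c) bind cyclin-kinase complexes more broadly and act strongly on Cdk2. Cdkn2a also encodes, from another first exon, the Arf protein, which stabilises p53. In cultured cells p15 is known as a target of TGF-beta, p27 as a brake engaged by cell contact, and p16 as a protein that builds up with time in culture.

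The submitters call the cells endothelial progenitor cells. Of 11 endothelial marker genes 5 were bright enough to test, and all 5 lay above background on all 4 arrays. Flt1, a receptor for VEGF, rose by 1.59 (adjusted p = 9.68e-04) and Egfl7 rose by 0.66, while the endothelial cadherin Cdh5 changed by 0.42 (adjusted p = 0.108) and the receptor Tie1 by 0.17 (adjusted p = 0.751). Cd34, Tek and Emcn lay under background on all 4 arrays. Of the other markers not tested, Esam exceeded background in the high density group only, at 5.74 and 6.22. Kdr exceeded it on 1 high density array and Pecam1 on 1 regular density array. Of 6 smooth muscle markers whose mean in each group passed the filter on dim probes, 5 were higher at high density, and a further one, Cnn1, passed it through the high density group alone. The summed scaled intensity of that list was 154536 to 160527 at high density and 19362 to 20444 at regular density. Macrophage markers were 4 higher and 1 lower of 8 tested, with sums of 35229 to 40512 and 27572 to 29267. Of 8 stromal markers, 3 were higher and 1 lower, with sums of 247612 to 264484 and 223479 to 257239. Of 7 leukocyte and lymphocyte markers, 3 were tested and 2 of these were higher. Over all features tested, 13.0% were higher and 17.9% lower. Over those whose mean in each group passed the filter, the shares were 12.4% and 18.3%. Negative control spots had a median of 13.4 and 10.5 on the replicate 1 arrays and 1.93 and 1.99 on the replicate 2 arrays, so differences within each replicate number stand beside the values below. All values below are log2 intensities, scaled so that the 75th percentile was equal on every array, and changes are high minus regular density. Levels of different probes are not compared.

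Promoter windows from RefSeq (build GRCr8) were found for 7 of the 10 genes. Those of Cdkn2b and Cdkn2a are shown because both genes fell and lie side by side on chromosome 5, with 8859 bases between them, and that of Cdkn1a because its probes gave changes of opposite sign, neither of which passed the test. Each runs 5′ to 3′ from 250 bases before the listed start to 50 bases after it. Capitals mark matches on either strand to the GC box (GGGCGG, in 34.9% of 27457 such windows) or the cyclic AMP response element (TGACGTCA, 1.91%), and matches to the p53 half-site consensus (7.89%).
Cdkn2b: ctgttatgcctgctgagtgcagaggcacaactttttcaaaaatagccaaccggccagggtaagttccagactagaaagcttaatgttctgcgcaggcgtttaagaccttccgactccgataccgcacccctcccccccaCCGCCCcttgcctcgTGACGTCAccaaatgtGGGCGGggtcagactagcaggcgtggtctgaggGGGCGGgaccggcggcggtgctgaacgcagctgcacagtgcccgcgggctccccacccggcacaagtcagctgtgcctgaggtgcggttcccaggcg
Cdkn2a: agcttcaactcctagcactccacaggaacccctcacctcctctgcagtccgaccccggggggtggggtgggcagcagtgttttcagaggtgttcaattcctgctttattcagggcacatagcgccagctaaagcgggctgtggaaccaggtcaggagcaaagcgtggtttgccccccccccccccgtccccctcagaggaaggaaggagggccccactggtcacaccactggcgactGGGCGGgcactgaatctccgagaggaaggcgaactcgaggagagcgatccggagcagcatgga
Cdkn1a: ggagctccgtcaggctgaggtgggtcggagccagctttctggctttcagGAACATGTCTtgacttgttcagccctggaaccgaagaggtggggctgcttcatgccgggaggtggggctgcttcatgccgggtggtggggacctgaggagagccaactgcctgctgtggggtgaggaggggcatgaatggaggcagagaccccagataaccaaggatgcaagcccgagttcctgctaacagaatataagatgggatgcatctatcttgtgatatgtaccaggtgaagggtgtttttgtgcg

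The Cdkn2b window lies at chr5:109134806-109135105 on the minus strand and holds 3 GC boxes and 1 cyclic AMP response element, whose first base is at -96 counted from the start. The Cdkn2a window, at chr5:109107907-109108206 on the minus strand, holds 1 GC box. Its start site lies 6492 bases inside the 5′ end that RefSeq lists for the gene, so the window does not cover the farthest upstream start. The Cdkn1a window, at chr20:7150682-7150981 on the plus strand, holds 1 match to the p53 half-site and 0 GC boxes. The motifs CCAAT (37.7% of windows), CACGTG (6.65%), TTTGGCGC (0.521%), TTTCGCGC (0.342%), TGTTTAC (3.76%) and GTCTAGAC (0.215%) were searched on both strands as well and had no match in these 3 windows. The matches describe letters only, and the motifs were chosen with the sequences in view.

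All 10 genes were bright enough to test, and all 13 probes lay above the negative controls on all 4 arrays. The inhibitors Cdkn2b and Cdkn2a fell at high density and no gene of the group rose. With limma across 13681 features, 2 of 10 were lower at an adjusted p under 0.05, where 17.9% of all features were lower, 13.0% higher and 30.9% changed in either direction. The share of members called is thus near the background. Both that fell did so by more than 2-fold, as did 1.70% of all features.

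Cdkn2b, the p15 inhibitor of Cdk4 and Cdk6, read 10.38 and 10.32 at high density and 11.51 and 11.40 at regular density. Both high density arrays lay about one log2 unit under both regular density arrays. The change was -1.10 (SE 0.10, 95% interval -1.34 to -0.87, n = 2 arrays per group, limma adjusted p = 7.39e-04), which is 2.15-fold lower. Within replicate numbers 1 and 2 the difference was -1.13 and -1.08. In bulk RNA, fewer cells that carry a transcript and less RNA per cell cannot be told apart. The part of the marker lists above in this fall was not tested, here or in the changes below.

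The probe behind this value (Entrez gene 25164) is listed on chromosome 5 from 108940426 to 108940485 in the authors' table, which names no assembly, and was printed 10 times on each array. The unscaled spots ran from 1116 to 1413 on high density replicate 1 and from 1341 to 1564 on replicate 2. At regular density they ran from 2367 to 2786 and from 2572 to 3089. No high density spot reached the lowest regular density spot. A second Cdkn2b probe, listed from 108941425 to 108941484, read 6.76 and 6.82 at high density and 8.15 and 8.18 at regular density. With every probe tested by itself it changed by -1.37 (SE 0.12, adjusted p = 6.12e-04), so both probes gave the same direction. Over the scalings tried it ran from -1.50 to -1.27, and the brighter probe was called under each of them too.

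**Figure D1:**
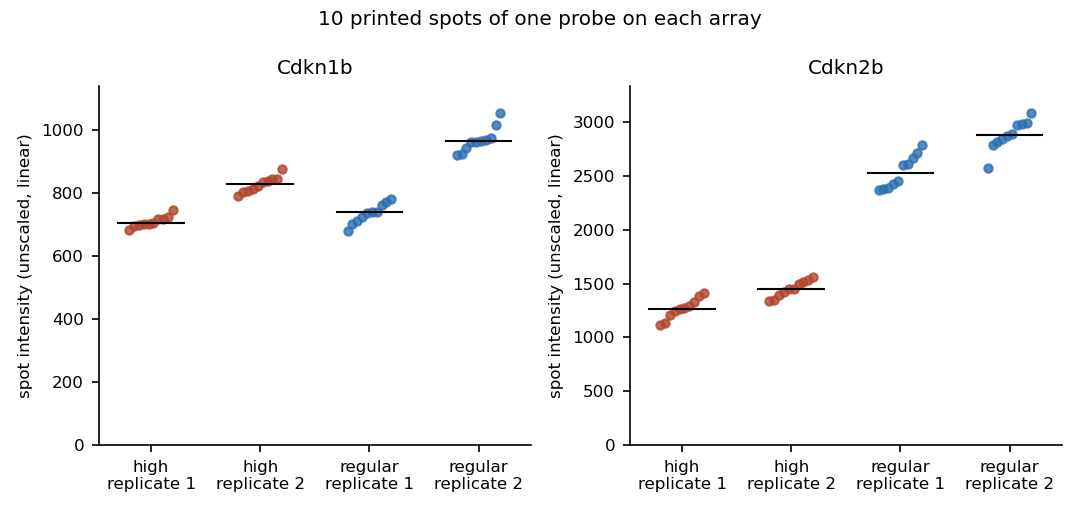
Unscaled linear intensity of the 10 printed spots (points) of the Cdkn1b probe and of the brighter Cdkn2b probe on each array, with the median as a line. For Cdkn2b the highest high density spot is 1564 and the lowest regular density spot 2367, while for Cdkn1b the arrays of the groups interleave.

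Cdkn2a, the source of p16 and Arf, read 11.49 and 11.30 at high density and 12.57 and 12.31 at regular density. Its groups did not overlap, and the smallest difference between a high and a regular density array was 0.82 log2. It fell by 1.05 (SE 0.13, 95% interval -1.36 to -0.74, adjusted p = 0.00255), which is 2.07-fold lower, and the differences within replicate numbers were -1.08 and -1.02. The unscaled intensities were 2721 and 2853 at high density and 5299 and 5423 at regular density. The probe (Entrez gene 25163) is listed on chromosome 5 from 108910777 to 108910836. Whether it reads p16, Arf or both was not tested, since probe sequences were not used here.

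Cdkn2a and the brighter Cdkn2b probe fell by like amounts. The log2 ratio of Cdkn2b over Cdkn2a on the same array was -1.11 and -0.98 at high density and -1.06 and -0.91 at regular density. Those ranges overlapped, and the ratio differed by -0.05 between groups (exact two-sided permutation test, p = 0.667, n = 2 per group). With 2 arrays against 2 that test cannot go below 0.333. This ratio rests on the brighter Cdkn2b probe. The other Cdkn2b probe changed by -1.37, and its ratio to Cdkn2a was not tested. With the mean over both probes, Cdkn2b over Cdkn2a differed by -0.19 between groups. The log2 ratio of the brighter over the other Cdkn2b probe differed by 0.27 between groups, without overlap. Among the genes listed beside the locus, Klhl9 changed by 0.28 (adjusted p = 0.0816) and Mtap, an enzyme of methionine salvage, by -0.15 (adjusted p = 0.362), and neither passed the test.

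The other INK4 genes did not pass the test. Cdkn2c, which encodes p18, had a mean of 7.05 ± 0.08 (SD, n = 2) at high density, with 7.11 on replicate 2, and read 6.74 and 6.83 at regular density. Each high density array was above each regular density array by at least 0.17, in the direction opposite to Cdkn2a and Cdkn2b, with a change of 0.27 (SE 0.14, 95% interval -0.08 to 0.61, adjusted p = 0.197). Cdkn2d, which encodes p19, read 9.10 and 9.17 at high density and 9.14 and 9.07 at regular density, and its groups overlapped. The change was 0.03 (95% interval -0.21 to 0.26, adjusted p = 0.854), and it was -0.10 under median scaling. Over the 4 INK4 genes the median change was -0.51, from -1.10 to 0.27, beside -0.08 over all features.

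**Figure D2:**
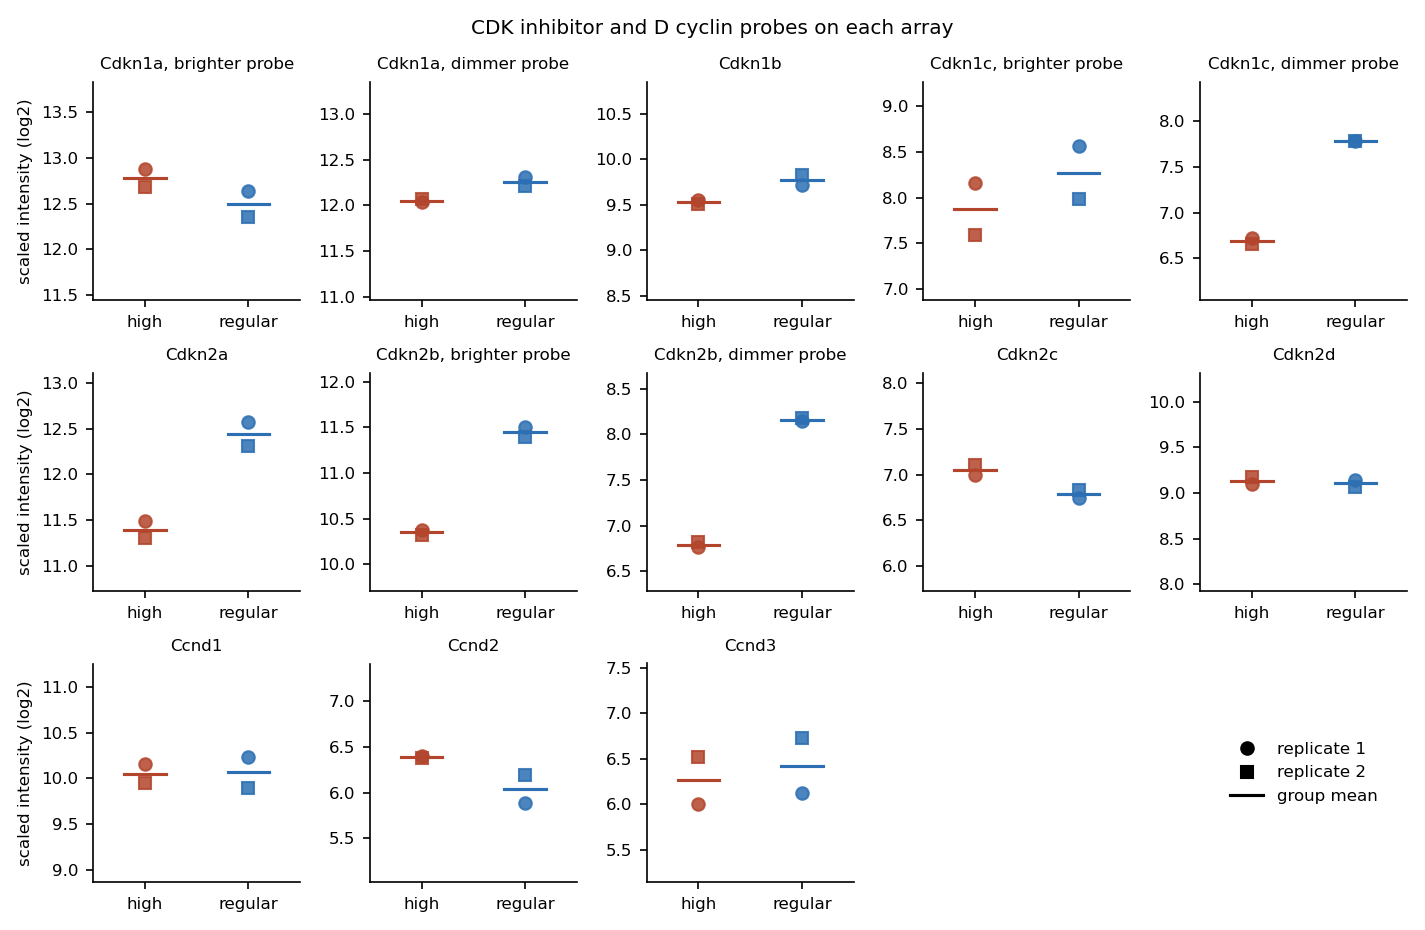
Scaled log2 intensity of each of the 13 probes on each array, by culture density, with the replicate number as the symbol and the group mean as a bar. Every panel spans the same height in log2 units around its own mean, and the gap between groups is widest for the dimmer Cdkn2b probe (6.76 and 6.82 against 8.15 and 8.18).

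Of the CIP and KIP genes 0 of 3 passed the test, and for 2 of them the probes differed in the size or sign of their change. Cdkn1a, which encodes p21, the main cell cycle target of p53, had 2 probes. The brighter one (chromosome 20 from 7385536 to 7385595) read 12.88 and 12.68 at high density and 12.64 and 12.35 at regular density. Its groups did not overlap but came within 0.05 log2, with a change of 0.29 (SE 0.13, 95% interval -0.03 to 0.61, adjusted p = 0.145) and differences within replicate numbers of 0.25 and 0.33. The other probe (from 7386596 to 7386655) read 12.04 and 12.07 at high density and 12.31 and 12.21 at regular density, the opposite order. That probe changed by -0.20 (SE 0.10, adjusted p = 0.154 with every probe tested by itself).

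The log2 ratio of the brighter over the other Cdkn1a probe was 0.84 and 0.62 at high density and 0.33 and 0.14 at regular density. The ratio was thus higher on both high density arrays, by 0.49 (exact permutation p = 0.333, the smallest that 2 against 2 allows). The brighter probe was called higher under quantile normalization (0.47, adjusted p = 0.0241) and in the authors' normalized values (0.47, adjusted p = 0.0238). These settings gave close changes for every member, so they are not separate support. Without regular density replicate 1 the change of the brighter probe was 0.43. Without regular density replicate 2 the change was 0.15, and without high density replicate 1 it was 0.19. The other probe ran from -0.33 to -0.09 over the scalings and was called under none of them. With the mean over both probes the change was 0.04 (adjusted p = 0.779).

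Cdkn1b, which encodes p27, read 9.55 and 9.51 at high density and 9.72 and 9.83 at regular density. Both high density arrays lay lower, by 0.17 to 0.32, and the change of -0.25 (SE 0.10, 95% interval -0.48 to -0.01) had adjusted p = 0.102. Before scaling, its 10 spots per array had medians of 705 and 830 at high density and 740 and 965 at regular density, with coefficients of variation of 2.53 to 4.37 percent. Under median scaling the change was -0.37 and passed the test (adjusted p = 0.0480).

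Cdkn1c, which encodes p57 and is imprinted, had 2 probes, which the authors' table assigns to different transcript variants. Whether each reads its variant alone was not tested, since probe sequences were not used here. The probe assigned to variant 3 (chromosome 1 from 203836064 to 203836123) read 8.16 and 7.59 at high density and 8.56 and 7.98 at regular density. Replicate 1 was the higher of each group, so the groups overlapped, and the change was -0.39 (SE 0.25, 95% interval -0.99 to 0.21, adjusted p = 0.267). Within replicate numbers the differences were -0.40 and -0.39. Without high density replicate 1 the change was -0.68 (adjusted p = 0.0349), and with each array left out it ranged from -0.68 to -0.10.

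The probe assigned to Cdkn1c variant 1 (from 203835291 to 203835350) read 6.72 and 6.66 at high density and 7.78 and 7.79 at regular density. The groups lay far apart against the spread within each. With every probe tested by itself it fell by 1.09 (SE 0.12, 95% interval -1.39 to -0.80, adjusted p = 0.00188), and it ran from -1.22 to -0.99 over the scalings. The 2 probes of the gene differed between groups by 0.70 log2 on the same array (exact permutation p = 0.333). With the mean over both probes the gene changed by -0.74 (adjusted p = 0.0187). Counted by probe, 4 of 13 were lower, namely both Cdkn2b probes, Cdkn2a and this one, and 0 were higher, where 17.7% of all probes were lower, 12.8% higher and 30.5% either.

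**Figure D3:**
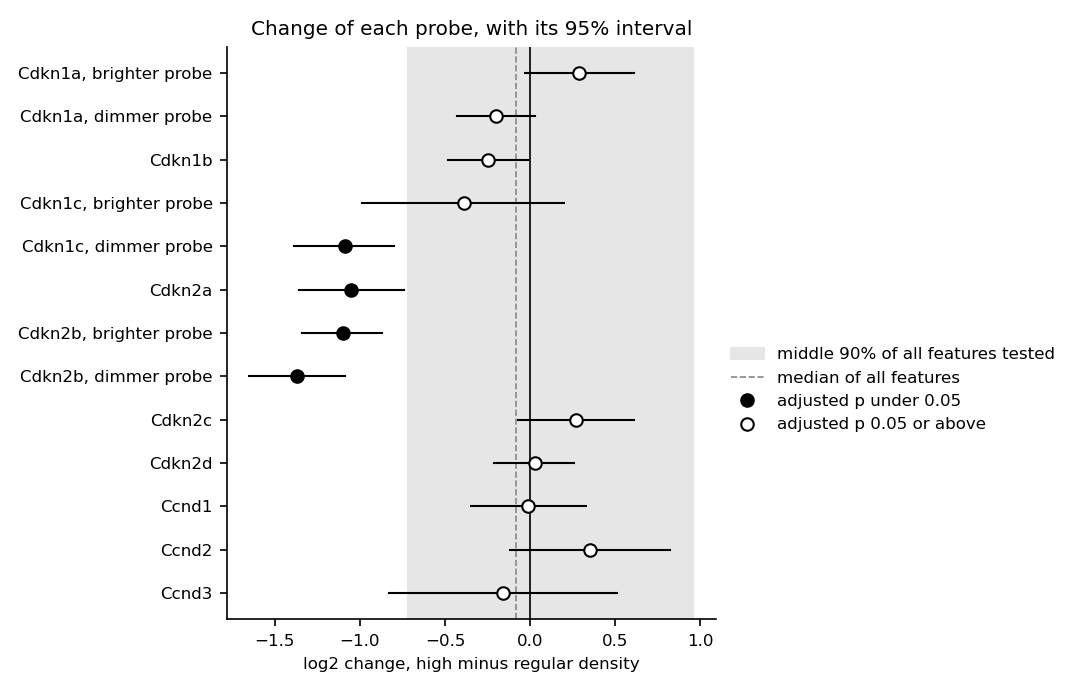
Log2 change of each of the 13 probes (points) with its 95% interval (lines), every probe tested by itself, with filled points for an adjusted p under 0.05. The 4 filled points lie from -1.37 to -1.05, outside the grey band that runs from the 5th to the 95th percentile of all features (-0.72 to 0.96).

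The D cyclins showed no change that passed the test, and 0 of 3 were called. Ccnd1, the D cyclin most responsive to growth factors in many cell types, read 10.16 and 9.95 at high density and 10.23 and 9.90 at regular density. The groups overlapped throughout, with a change of -0.01 (SE 0.14, 95% interval -0.35 to 0.33, adjusted p = 0.959). That interval leaves room for a change of either sign, and the sign was positive under quantile normalization and without scaling. Its probe (Entrez gene 58919) is listed on chromosome 1 from 205361630 to 205361689.

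Ccnd2, the second D cyclin, read 6.40 and 6.38 at high density and 5.89 and 6.19 at regular density. Both high density arrays were above both regular density arrays, with a change of 0.35 (SE 0.20, 95% interval -0.12 to 0.83, adjusted p = 0.215), from 0.51 within replicate number 1 to 0.19 within replicate number 2. Leaving out regular density replicate 1 gave 0.20 and leaving out replicate 2 of that group gave 0.50, neither called. The dimmest Ccnd2 array lay 0.81 log2 above background. Its probe is listed on chromosome 4 over 6825 bases (163535032 to 163541856), where the other listed probes cover 60.

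Ccnd3, the third D cyclin, read 6.01 and 6.52 at high density and 6.12 and 6.73 at regular density. Replicate 2 was the higher in each group, and the groups overlapped. The change was -0.16 (SE 0.28, 95% interval -0.83 to 0.52, adjusted p = 0.694), and it was 0.10 without high density replicate 1 and 0.15 without regular density replicate 2. Neither Ccnd3 nor Cdkn2d has a position in the authors' table.

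Ratios within an array set the members against each other, over 5 pairs in all. The log2 ratio of Ccnd2 over Ccnd3 was 0.40 and -0.14 at high density and -0.23 and -0.54 at regular density, a difference of 0.51 without overlap, and with each array left out it ranged from 0.24 to 0.78. Ccnd1 over Ccnd2 differed by -0.36 and Ccnd1 over Ccnd3 by 0.15, both with overlap. Cdkn1a over Cdkn1b was 3.34 and 3.17 at high density and 2.92 and 2.52 at regular density, a difference of 0.54 without overlap. That value rests on the brighter Cdkn1a probe. With the other probe the ratio was 2.49 and 2.56 at high density and 2.59 and 2.38 at regular density, a difference of 0.04 with overlap. In none of the 5 pairs was the exact permutation p adjusted over the pairs under 0.667. Over the 10 genes, 6 had groups that did not overlap, beside 69.7% of all features.

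Downstream of these regulators, most S phase genes that E2F factors switch on were higher at high density. A gene that passed the filter on dim probes through 1 group alone had group means on opposite sides of it, which favours a difference. The counts for the lists below are therefore over genes whose mean in each group passed the filter. Of 13111 such features 12.4% were higher and 18.3% lower. Of 12 S phase genes 10 rose and 0 fell, with a median change of 0.91. The ribonucleotide reductase subunit Rrm2 rose by 1.57 (SE 0.13, adjusted p = 6.60e-04), thymidine kinase Tk1 by 1.07 and the helicase subunit Mcm4 by 0.79. The transcription factor Mybl2 passed the filter through the high density group alone, with means of 7.56 at high and 5.32 at regular density. Of 5 later cyclins 4 rose, with a median of 1.64, among them the S phase cyclin Ccna2 (2.19), the mitotic cyclins Ccnb1 (1.97) and Ccnb2 (1.64), and Ccnf (0.92). The E cyclin Ccne1 changed by 0.54 (adjusted p = 0.0724). Of the proliferation markers 3 passed the filter in each group and all 3 rose, namely the checkpoint kinase Bub1 (1.48), the transcription factor Foxm1 (mean 7.42 against 6.33) and the mitotic kinase Plk1 (1.05). Aurka, Aurkb and Top2a passed it through the high density group alone, and Aurkb was above background on 1 of the 2 regular density arrays, with means of 6.66 and 5.26.

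Among the kinases and their activators, 2 rose and 1 fell of 10. The mitotic kinase Cdk1 rose by 1.51 (SE 0.09, adjusted p = 2.37e-04) and Cdk2 by 0.56 (adjusted p = 0.0163), while Cdk4, the partner of the D cyclins, had a change of -0.41 (SE 0.10, adjusted p = 0.0214). Cdk4 read 10.77 and 10.87 at high density and 11.26 and 11.21 at regular density. The phosphatase Cdc25b changed by 0.30 (adjusted p = 0.0782). Of 7 pocket proteins and E2F factors, 1 rose and 1 fell, with a median of 0.03. The activator E2f1 rose by 0.62, while the pocket protein Rbl2 fell by 0.43 (adjusted p = 0.0210). The repressive factors E2f7 (means of 7.09 at high and 5.37 at regular density) and E2f8 (6.86 and 5.51) passed the filter through the high density group alone.

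**Figure D4:**
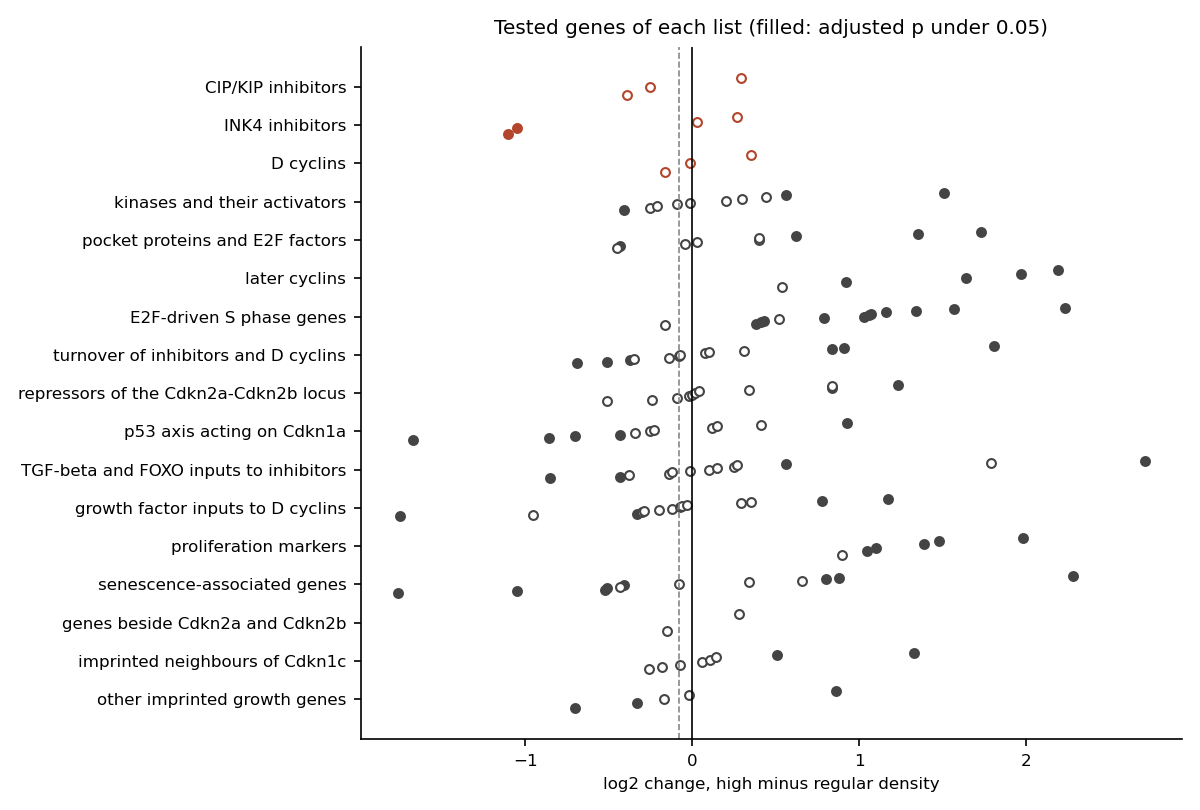
Log2 change of every tested gene of each list (points, red for the inhibitors and D cyclins), filled where the adjusted p was under 0.05, with the median of all features (-0.08) as a dashed line. Filled points of the later cyclins, S phase genes and proliferation markers lie to the right of 0, including Mybl2, Aurkb and Top2a, which passed the filter through the high density group alone, and those of the INK4 inhibitors to the left.

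Genes known to control the members were examined as lists, beside 30.7% of all such features called in either direction. Of 10 repressors of the Cdkn2a and Cdkn2b locus, 2 rose and 0 fell, namely the Polycomb protein Cbx8 (1.23, SE 0.09, adjusted p = 4.28e-04) and the T-box repressor Tbx2 (0.84, adjusted p = 0.00973). Cbx2 changed by -0.24 (adjusted p = 0.246), and the histone methyltransferase Ezh2, with means of 6.34 and 5.50, passed the filter through the high density group alone. The median of the list was 0.01. Among 12 TGF-beta and FOXO inputs, 2 rose and 2 fell. The ligand Tgfb3 rose by 2.71 and the receptor Tgfbr1 by 0.56, while the receptor Tgfbr2 fell by 0.43 and Klf4, an activator of Cdkn1a, by 0.85.

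Of 11 genes of the p53 axis tested, 1 rose and 4 fell, with a median of -0.25. Gadd45a fell by 1.67, the p53 inhibitor Mdm2 by 0.86 and Zmat3 by 0.70, while Mdm4, also a p53 inhibitor, rose by 0.93 (adjusted p = 0.00500). Cdkn1a, the target shared with this axis, did not pass the test with either probe. Of 13 genes listed for the turnover of the inhibitors and D cyclins, 3 rose and 3 fell. Skp2, which marks p27 for destruction, rose by 0.84 (SE 0.20, adjusted p = 0.0221), Cks2 by 1.81 and Cdc20 by 0.91. Fbxo4, linked to the turnover of cyclin D1, fell by 0.69, and Cks1b changed by -0.08 (adjusted p = 0.633). Of 11 growth factor inputs to the D cyclins, 2 rose and 1 fell. Ctnnb1, which encodes beta-catenin, rose by 0.78 and its partner Lef1 by 1.17, while Ets2 fell by 0.33. Mycn passed the filter through the regular density group alone, with means of 5.51 at high and 7.26 at regular density.

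Of 12 senescence-associated genes 3 rose and 5 fell, with a median of -0.24. The chromatin protein Hmgb2 rose by 0.88, while Igfbp3 fell by 1.05 and the chemokine Cxcl1 fell by 1.76. Of 8 imprinted neighbours of Cdkn1c, 2 rose and 0 fell, namely Igf2 (1.33) and Phlda2 (0.51), while Kcnq1 changed by -0.26 and Slc22a18 by -0.18, neither called. Among 5 other imprinted growth genes tested, Mest fell by 0.70 and Ndn by 0.33, Plagl1 rose by 0.86, and Igf2r changed by -0.17 (adjusted p = 0.312).

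The gene nearest to Cdkn2b by its 4 centred array values was Tox, at a Euclidean distance of 0.03 log2, followed by Ppp1r15a, Pdia4, Dnai7 and Agtr1a at 0.04 to 0.06. The genes nearest to Ccnd2, the member with the highest change, were Klhdc8a at 0.02, then Gfpt1, Pcbd1, Adamts6 and Ndnf at 0.04 to 0.05. The distances are a description over 4 arrays.

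**Figure D5:**
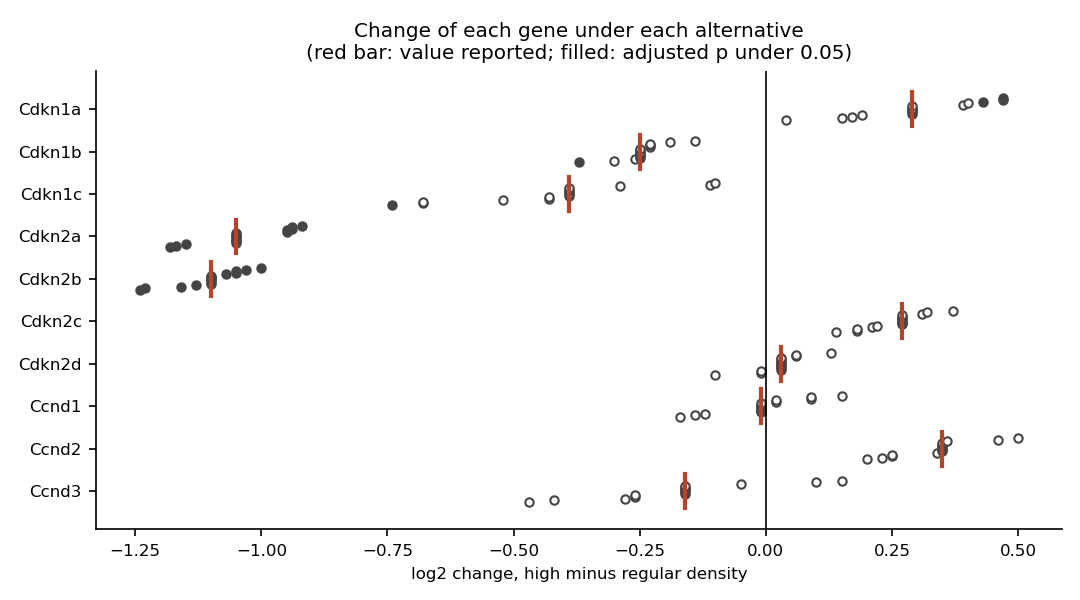
Log2 change of each gene under each alternative setting (points), filled where the adjusted p was under 0.05, with the reported value as a red bar. Cdkn2a stays between -1.18 and -0.92 and every Cdkn2b point is filled, while the points of Cdkn2d, Ccnd1 and Ccnd3 lie on both sides of 0.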

How the data were processed

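Spot values are linear intensity as deposited, the processed signal of Agilent Feature Extraction per the file headers, given as version 11.0.1.1 in the submitters' processing notes. The authors' table holds raw intensity and normalized log2 values, made with GeneSpring GX 12.0 per the file headers. Which normalization they used is not given in the sources used here. A deposited series matrix repeats these log2 values.

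From 44254 spots per array, 1377 control spots were left out and repeated spots averaged on the log2 scale, giving 30367 probes, which were scaled at the 75th percentile. Probes with a mean above 5.62, the median of all probes, were tested, the brightest per gene, with limma 3.58.1 in R 4.3.3 (trended variances, two-sided, Benjamini-Hochberg, threshold 0.05). Symbols were updated through RefSeq (GRCr8). Background was the 99th percentile of 153 negative control spots. The 75th percentile of intensity ran from 355 to 462. Nothing says that arrays came from separate animals, so p-values measure the spread between these samples, and their number, 2 per group, limits precision.

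The members, gene lists and tests were chosen with earlier results of these data known. Named genes are the 10 members, up to 4 tested genes with the smallest p per list, and the 5 nearest profiles of the highest and the lowest member. A gene that this rule names is not reported here, and Cnn1, Cd34, Tek, Emcn, Aurka and Top2a were named after their values were seen. The method was tested on simulated data, where it recovered 30.3% of changes of 0.5 log2 and 94% of changes of 1 log2. In the simulation 66 or 67 of 13681 features were changed at each size, while 30.9% were called in the data. Its shares of recovery thus may not hold for the reported test, and a change of 0.5 log2 or less could go uncalled. Alternatives were other scalings, a floor of 32, the authors' values, other filters and probe rules, no variance trend, a replicate block, a fold of at least 2 and leaving out each array. Testing every probe under each scaling and comparing probes of one gene, alone or in the ratio to Cdkn1b, and counting lists over genes that passed the filter in each group were added after seeing the data.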

Additional observations from a re-analysis of the deposited data

How the results depend on the processing

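Cdkn2a and Cdkn2b kept their direction and their call under all 15 alternatives run on each, with adjusted p of at most 0.00928 and 0.00367. The number of members lower was 4 of 10 with the replicate number as a block, where 4137 of 13681 features were lower. The number higher was 1 under quantile normalization, with the authors' normalized values and with the replicate block, and ranged from 0 to 1 with each array left out. The genes that the replicate block added were Cdkn1a (0.29, adjusted p = 0.0141), Cdkn1b (-0.25, adjusted p = 0.0342) and Cdkn1c (-0.39, adjusted p = 0.00413). The labels do not say that a number pairs arrays. The arrays' deviations from their group means correlated at 0.37 across features between the groups, and 2 pairs are too few to settle it. Over all features, 2883 were higher and 4137 lower with the block, 635 and 233 with a fold of at least 2, and 578 lower without scaling, and leaving out each array gave 1170 to 1889 higher and 1242 to 2233 lower, the fewest of both without high density replicate 1. The share of calls that were higher was 42.1% as reported, 27.0% under median scaling and 70.7% without scaling, where the median change was -0.08, -0.20 and 0.03. Small changes turned sign: Ccnd1 was 0.02 under quantile normalization and with the authors' values, 0.09 without scaling and -0.17 to 0.15 with each array left out. Cdkn2d was -0.10 under median scaling and -0.01 to 0.06 with each array left out, and Ccnd3 was -0.47 to 0.15. The ratio of Ccnd1 over Ccnd3 changed by -0.32 to 0.62, that of Ccnd1 over Ccnd2 by -0.68 to -0.05, that of Ccnd2 over Ccnd3 by 0.24 to 0.78, that of Cdkn1a over Cdkn1b by 0.34 to 0.73, and that of Cdkn2b over Cdkn2a by -0.13 to 0.02, when arrays were left out in turn. The cause of these shifts was not tested. Ccnd2 and Ccnd3, the dimmest members, lay as little as 0.81 and 0.82 log2 above background.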
